A study of Mus musculus with 8 samples.

Results

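Secreted Wnt antagonists are extracellular proteins that keep Wnt ligands from signalling. Here they comprised 10 mouse genes, Sost, Sostdc1, Frzb, Sfrp1, Sfrp2, Sfrp5, Dkk1, Dkk2, Dkk3 and Wif1, taken by symbol from a table of 34536 gene symbols, and all 10 were present. The table holds RNA-seq counts of cells sorted by fluorescence out of mouse embryoid bodies, which are aggregates of differentiating pluripotent cells. By their labels 4 libraries are endocardial (A, C, E, G) and 4 endothelial (B, D, F, H), with no genotype, treatment, culture day or cell line stated for either. No source used here gives the sort markers or says that the libraries came from separate cultures, so p-values reflect the scatter among these 8 samples alone, which may be technical.

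Wnt ligands bind Frizzled receptors together with the co-receptors Lrp5 and Lrp6, which stabilises beta-catenin and switches on its target genes. The antagonists act in different ways. The secreted Frizzled-related proteins (the Sfrp genes and Frzb) carry a Frizzled-like cysteine-rich domain and bind the ligands, as does Wif1, while sclerostin (Sost), Sostdc1 and most Dickkopf proteins (the Dkk genes) bind the co-receptors. In the embryo, phases of Wnt activity and of Wnt inhibition both mark the path of mesoderm towards the heart, and Dkk1 is known among the inhibitors that favour heart formation.

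Sost and Frzb are shown here by their promoters because they lay on opposite sides of the comparison with no overlap between groups, and Dkk1 because it is a known target gene of beta-catenin. The sequences are from RefSeq (GRCm38.p6) and run 5′ to 3′ on the gene's strand, from 250 bases before to 50 after the RefSeq start. Capitals mark matches to the motifs named after the sequences, so a match on the other strand reads as the motif's reverse complement. The Sost window is chr11:101966966-101967265, the Frzb window chr2:80447347-80447646 and the Dkk1 window chr19:30549447-30549746, all on the minus strand.
Sost: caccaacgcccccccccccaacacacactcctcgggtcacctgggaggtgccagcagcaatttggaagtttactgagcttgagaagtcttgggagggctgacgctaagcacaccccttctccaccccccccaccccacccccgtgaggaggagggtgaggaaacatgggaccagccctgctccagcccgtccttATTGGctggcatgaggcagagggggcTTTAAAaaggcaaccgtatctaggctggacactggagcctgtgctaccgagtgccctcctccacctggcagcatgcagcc
Frzb: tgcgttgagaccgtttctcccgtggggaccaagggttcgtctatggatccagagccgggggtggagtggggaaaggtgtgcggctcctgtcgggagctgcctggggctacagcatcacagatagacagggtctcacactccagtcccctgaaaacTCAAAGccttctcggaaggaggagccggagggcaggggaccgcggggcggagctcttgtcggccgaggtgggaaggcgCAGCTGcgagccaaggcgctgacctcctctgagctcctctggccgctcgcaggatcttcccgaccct
Dkk1: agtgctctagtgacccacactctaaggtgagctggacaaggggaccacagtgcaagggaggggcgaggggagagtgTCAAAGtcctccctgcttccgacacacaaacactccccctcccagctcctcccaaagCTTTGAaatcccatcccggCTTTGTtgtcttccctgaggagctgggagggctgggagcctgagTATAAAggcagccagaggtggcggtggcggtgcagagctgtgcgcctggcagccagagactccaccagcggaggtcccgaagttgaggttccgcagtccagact

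The motifs searched on both strands were the TCF/LEF core CTTTGA, the SOX core ACAAAG, the ETS core AGGAAG, the GATA core AGATAA and the E-box CAGCTG, and the TATA box TATAAA was searched on the gene's strand. No match in the 3 printed windows overlapped another. Counted from the RefSeq start to a match's first base on the gene's strand, Dkk1 had the TCF/LEF core at -174 and -117, the SOX core at -98 and the TATA box at -54. Its RefSeq start lies 169 bases from the GENCODE gene start. Frzb had the TCF/LEF core at -95 and the E-box at -17, with the starts 229 bases apart. The Sost window held none of these 6 motifs, and its RefSeq and GENCODE starts were the same base. After it had been read, TTTAAA on the gene's strand and CCAAT on both strands were added to the search, and Sost had them at -30 and -56. Among 32851 mouse promoter windows of this length, 16% held the TCF/LEF core, 8.32% TATAAA, 35.4% the ETS core, 11.2% the GATA core, 16.3% the E-box, 18.7% the SOX core, 13.2% TTTAAA and 37.4% CCAAT.

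Promoter windows were matched for 7 members, and those of Sostdc1, Sfrp1 and Dkk3 are not shown. In the 7 windows the TCF/LEF core occurred in 2 (Frzb and Dkk1), TATAAA in 2 (Dkk1 and Dkk2), the SOX core in 2 (Dkk1 and Dkk2), the GATA core in 1 (Sfrp5), the E-box in 1 (Frzb) and the ETS core in 0. The GC content of the Sost window was 62.0%, against a median of 52.7% over all windows. The other member windows also lay above this median, from 57.7% (Dkk2) to 66% (Sfrp2). The observed over expected CpG ratio of the Sost window was 0.247, against a median of 0.384. Frzb had 0.646, Sfrp2 0.682, Sfrp5 0.622, Dkk2 0.499 and Wif1 0.848. Dkk1 had 0.327, so Sost and Dkk1 were the CpG-poorest windows of the 7.

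Totals per library ran from 6677667 to 11369363 counts. A count of 3 corresponded to 0.267 to 0.437 CPM (counts scaled to a common library size after TMM normalization). That count was taken as an approximate upper limit, not a maximum, for a gene with no count, and it covers counting error alone. The endocardial libraries had more transcripts of endothelial genes. The summed level of 19 pan-endothelial markers, led by Kdr and Tek, was 1550 to 1959 CPM in endocardial and 426.3 to 883.9 CPM in endothelial libraries, and 16 of the 19 passed the test as higher, 0 as lower. For 12 endocardial markers, led by Cgnl1 and Plxnd1, it was 1021 to 1271 against 404.1 to 736.7 CPM, and 4 of the 12 passed as higher. The sums of 12 pluripotency markers (Lin28a and Dppa5a leading) were 392.7 to 530.9 CPM in endocardial and 494.9 to 1367 CPM in endothelial libraries, with the highest in F, and 2 of the 12 passed as lower. Those of 10 neural ectoderm markers (Nes and Otx2 leading) were 143.6 to 217.9 against 197.8 to 342.0 CPM, and 6 of 9 tested passed as lower. Those of 10 mesenchyme and fibroblast markers (Col1a1 and Col1a2 leading) were 4333 to 8349 against 3859 to 25850 CPM, with the highest in B and the lowest in F. Sums of smooth muscle (Acta2, Notch3; 1336 to 2220 against 850.1 to 1995 CPM), cardiomyocyte (Tnni1, Tnnt2; 227.9 to 431.0 against 164.6 to 349.3), epicardial (Upk3b, Wt1; 13.7 to 26.8 against 19.7 to 111.0), mesoderm (Pdgfra, T; 163.2 to 306.2 against 127.1 to 326.9) and blood (Hbb-bh1, Hba-x; 613.5 to 1753 against 273.9 to 2407) markers overlapped between the groups. The endoderm list (Gata6, Sox17) had 76.8 to 90.6 against 52.2 to 74.2 CPM, with no overlap. Of its 6 tested genes 1 passed as higher, Sox17, which is also 1 of the 19 pan-endothelial markers. The groups were nearest at C (76.8) and B (74.2), where Sox17 was at 6.89 and 2.85 CPM, so the gap rests on this shared gene. Of 10 blood markers, 1 passed as higher. The genes named for each list are its 2 most abundant. Of them Kdr, Plxnd1 and Sox17 passed as higher, and the rest, Nes, Otx2, Lin28a and Dppa5a included, did not pass. Of all tested genes, 1.42% passed as higher and 1.17% as lower. The part of these markers in the levels described next was not tested, and in such bulk samples fewer cells of a type and less RNA per cell cannot be told apart.

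**Figure D1:**
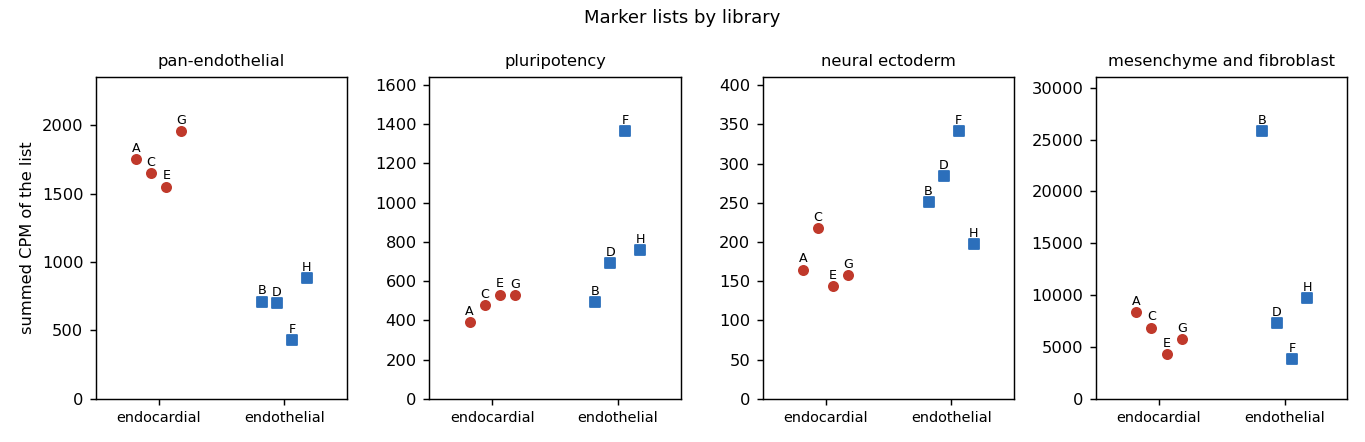
Summed CPM of 4 marker lists in each library (y axis, linear, from 0), with the endocardial libraries as circles on the left and the endothelial libraries as squares on the right of each panel. The pan-endothelial sums lie apart between the groups, library F has the highest pluripotency sum at 1367 CPM, and library B has the highest mesenchyme sum at 25850 CPM.

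The set was selected on these same values, the levels in endocardial against endothelial libraries. Their levels and fold changes are therefore a description and carry no p-value. Of the 10 members, 8 had enough counts to enter the fit across 13817 genes, and Sostdc1 and Wif1 did not. Sost entered through its endocardial libraries, since 1 of 4 endothelial libraries reached the filter's 1.13 CPM.

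Sost encodes sclerostin, a secreted protein of the DAN family known from osteocytes, where it binds Lrp5 and Lrp6 and restrains bone formation, and known also from vascular smooth muscle. Its gene has 2 exons and lies on the minus strand of chromosome 11, from 101962458 to 101967015 (GRCm38). Sost had 10.4, 8.46, 6.33 and 6.10 CPM in endocardial libraries A, C, E and G, against 0.534, 0.874, 1.46 and 0.477 CPM in endothelial libraries B, D, F and H. Every endocardial library was above every endothelial library, and F was the highest of the endothelial ones. In counts this was 81, 81, 59 and 49 against 6, 6, 14 and 4, so the endothelial levels rest on few reads. The means were 7.83 ± 2.03 and 0.836 ± 0.450 CPM (SD, n = 4 each), and edgeR's log2 fold change was 3.21 (SE 0.39), or 9.24-fold higher in endocardial libraries.

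Set against the summed pan-endothelial markers of each library, the gap was narrower. Per 1000 CPM of the summed pan-endothelial list, Sost had 5.97, 5.14, 4.08 and 3.11 CPM in endocardial libraries A, C, E and G, against 0.751, 1.25, 3.42 and 0.540 CPM in endothelial libraries B, D, F and H. On this scale, added after the data were seen, library F lay above library G and the groups overlapped. Defining genes of bone cells were at low levels or had no count. Mepe had no count in any library, Ibsp and Bglap were at most at 0.129 and 0.258 CPM, and Dmp1 was at 0.249 to 0.522 CPM in endocardial and 0.445 to 0.597 CPM in endothelial libraries. Phex was at 0.209 to 0.871 against 0.239 to 0.874 CPM, and Sp7, which osteoblasts require, at 0.313 to 0.536 against 0.104 to 1.17 CPM. In endothelial library D, Sp7 (1.17 CPM) was above Sost (0.874 CPM). The whole list of 7 bone-cell genes summed to 9.27 to 16.1 CPM in endocardial and 16.5 to 32.0 CPM in endothelial libraries, most of it Pdpn, which other cells also express.

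The nearest protein-coding neighbours of Sost did not share the size of its difference. Dusp3, a phosphatase gene 4127 bases away, was at 30.9 ± 4.41 CPM in endocardial and 21.1 ± 3.21 CPM in endothelial libraries (n = 4, SD; log2 fold change 0.55, SE 0.15, edgeR adjusted p = 0.0957). The groups did not overlap for Dusp3, by a small margin, at 26.01 to 36.07 CPM in endocardial and 18.61 to 25.8 CPM in endothelial libraries. On the other side, the homeobox gene Meox1, 68083 bases away, had 1.81 ± 1.19 against 1.38 ± 0.773 CPM (log2 fold change 0.40, SE 0.56). Beyond it Etv4, a gene for an ETS protein, differed by 0.20 on the log2 scale (SE 0.26), and Cfap97d1 beyond Dusp3 was not analysed here. None of the 3 passed the test.

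Among 10887 candidate genes of at least 5 CPM on average, the 5 whose log2 CPM followed Sost most closely over the 8 libraries were Mmrn2, Slc6a9, Pecam1, Lrrc8b and Flt1, with Pearson r between 0.978 and 0.984. These values mostly follow the gap between the groups, and no p is given. Mmrn2, an endothelial matrix protein gene, had 46.7 ± 7.75 CPM in endocardial and 9.21 ± 4.72 CPM in endothelial libraries (SD, n = 4). Pecam1, an endothelial adhesion molecule gene, had 156.3 ± 5.13 against 88.4 ± 14.1 CPM, and Flt1, a VEGF receptor gene, had 145.4 ± 14.9 against 62.4 ± 5.66 CPM. Slc6a9, a glycine transporter gene, differed less, at 31.6 ± 1.98 against 21.6 ± 2.74 CPM, but kept the highest r of the 5 (0.952) once the group means were removed. Lrrc8b, a subunit gene of volume-regulated anion channels, had 44.9 ± 2.99 against 26.4 ± 2.61 CPM.

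Sostdc1, the closest relative of Sost and likewise an antagonist of Wnt and BMP signals (chromosome 12, 36314139 to 36318452), was near the detection limit. It had 1, 4, 13 and 1 counts in endocardial libraries A, C, E and G, against 2, 2, 31 and 5 counts in endothelial libraries B, D, F and H. Libraries E and F stood highest in their groups, at 1.39 and 3.23 CPM, and the groups overlapped. The means were 0.516 ± 0.601 CPM in endocardial and 1.07 ± 1.45 CPM in endothelial libraries (SD, n = 4), with too few counts for the fit.

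**Figure D2:**
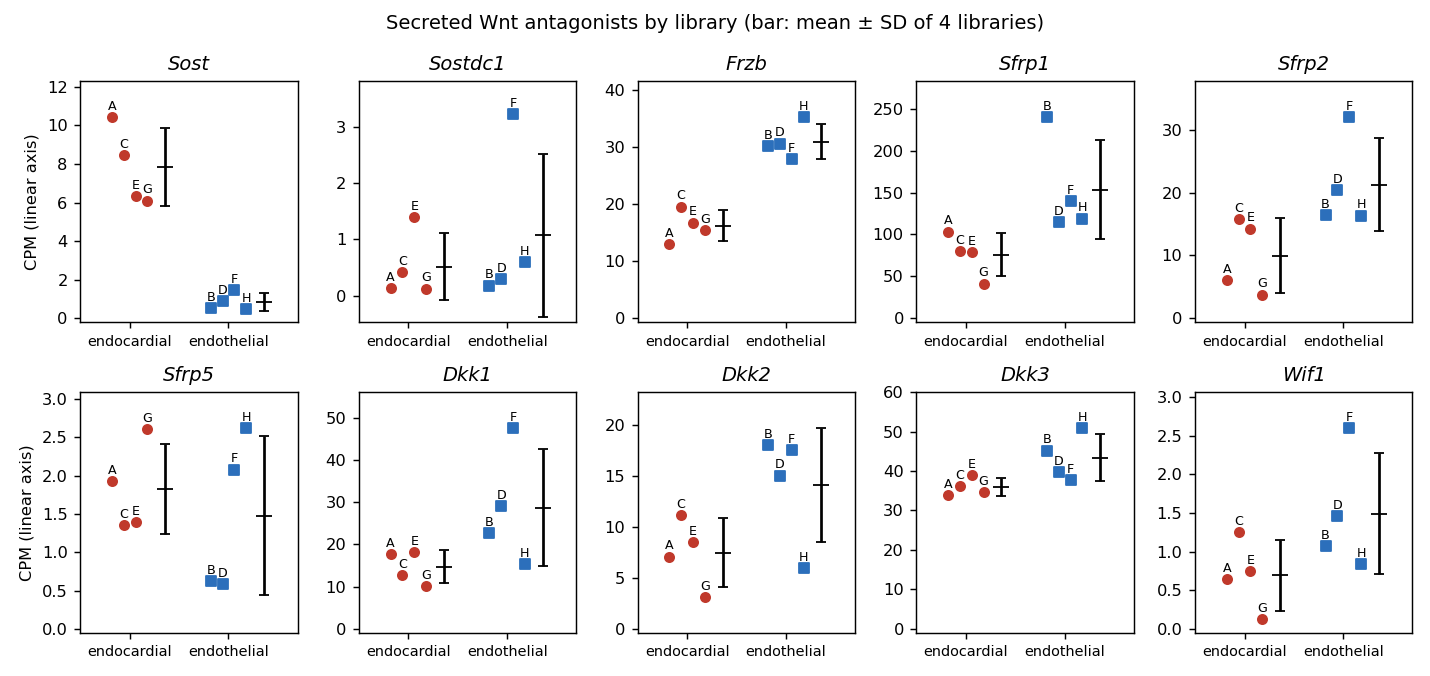
CPM of each of the 10 members (y axis, linear, one scale per panel) in the endocardial libraries (circles, left) and the endothelial libraries (squares, right), with letters for libraries and bars for the mean ± SD of 4. Sost is higher in all endocardial libraries, at 6.10 to 10.4 against 0.477 to 1.46 CPM, and Frzb lower in all of them, at 13.0 to 19.5 against 27.8 to 35.2 CPM.

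The Frizzled-related genes other than Sfrp5 had lower levels in endocardial libraries. Frzb, which binds Wnt ligands and is known from cartilage (chromosome 2, 80411970 to 80447625), had 13.0, 19.5, 16.7 and 15.4 CPM in endocardial libraries A, C, E and G, against 30.2, 30.6, 27.8 and 35.2 CPM in endothelial libraries B, D, F and H. Each group was tight and there was no overlap. The means were 16.2 ± 2.72 and 30.9 ± 3.10 CPM (n = 4 each, SD; log2 fold change -0.93, SE 0.15). Sfrp1, a modulator that binds Wnt ligands and Frizzled receptors (chromosome 8, 23411502 to 23449632), had 103.4, 79.7, 78.4 and 41.3 CPM in endocardial libraries, in the same order, against 240.1, 114.7, 140.0 and 118.9 CPM in endothelial libraries. The groups did not overlap, but A (103.4) and D (114.7) lay close, and B, the library with the highest mesenchyme sum, was far above the rest. Its log2 fold change was -1.02 (SE 0.31).

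Sfrp2, which is expressed in mesoderm and neural tissue of the embryo (chromosome 3, 83766321 to 83774316), had 6.05, 15.8, 14.3 and 3.73 CPM in endocardial libraries A, C, E and G, against 16.4, 20.4, 32.1 and 16.3 CPM in endothelial libraries B, D, F and H. The groups were apart by a small margin, between C at 15.8 and H at 16.3 CPM. Its log2 fold change was -1.09 (SE 0.43). Sfrp5, a gene of foregut endoderm and other tissues (chromosome 19, 42197971 to 42202252), had 1.93, 1.36, 1.39 and 2.61 CPM in endocardial libraries, against 0.623, 0.583, 2.08 and 2.62 CPM in endothelial libraries. B and D were low and F and H were as high as the endocardial libraries, so the groups overlapped. The log2 fold change was 0.29 (SE 0.51).

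Of the Dickkopf genes, Dkk1 and Dkk2 had lower mean levels in endocardial libraries with overlap, and Dkk3 had a log2 fold change nearer 0. Dkk1, which binds Lrp5 and Lrp6 together with Kremen receptors (chromosome 19, 30545863 to 30549665), had 17.6, 12.7, 18.2 and 10.2 CPM in endocardial libraries A, C, E and G, against 22.7, 29.1, 47.7 and 15.4 CPM in endothelial libraries B, D, F and H. Only H of the endothelial libraries lay within the endocardial range, and F was the highest. The log2 fold change was -0.97 (SE 0.33). Dkk2, which can inhibit or, by itself, weakly activate the co-receptors (chromosome 3, 132085292 to 132180304), had 7.08, 11.2, 8.48 and 3.11 CPM in endocardial libraries, against 18, 15, 17.5 and 5.97 CPM in endothelial libraries. Again H lay within the endocardial range and the other 3 above it (log2 fold change -0.91, SE 0.41). Dkk3, a divergent family member whose action on Wnt signalling is unsettled (chromosome 7, 112116017 to 112159057), had 33.9, 36.2, 39.1 and 34.7 CPM in endocardial libraries, against 45.2, 39.8, 37.7 and 50.9 CPM in endothelial libraries. F lay within the endocardial range, and the log2 fold change was -0.27 (SE 0.12).

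Wif1, a Wnt-binding inhibitor (chromosome 10, 121033960 to 121100650), had 5, 12, 7 and 1 counts in endocardial libraries A, C, E and G, against 12, 10, 25 and 7 counts in endothelial libraries B, D, F and H. Its means were 0.693 ± 0.463 and 1.49 ± 0.784 CPM (SD, n = 4 each). The groups overlapped, with F the highest, and Wif1 had too few counts for the fit.

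In the fit, 2 of the 8 members had an adjusted p below 0.05, Sost (higher) and Frzb (lower), where 2.59% of all tested genes did, 1.42% as higher and 1.17% as lower. The groups did not overlap for 4 of the 8, Sost above and Frzb, Sfrp1 and Sfrp2 below, where 9.76% of all tested genes had no overlap, 4.42% above and 5.33% below. Of the 8, 6 had a log2 fold change below 0, against 47.6% of all tested genes. Since the choice of members used this contrast, nothing is read from these counts. The median log2 fold change of the 8 was -0.92, and that of all 13817 tested genes 0.01. Frzb, Sfrp1, Sfrp2, Dkk1 and Dkk2 lay between -1.09 and -0.91. Of the 8, Sfrp1 and Sfrp2 had a log2 fold change of -1 or less, where 5.1% of all tested genes did. Sost had one of 1 or more, where 2.33% of all tested genes did.

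**Figure D3:**
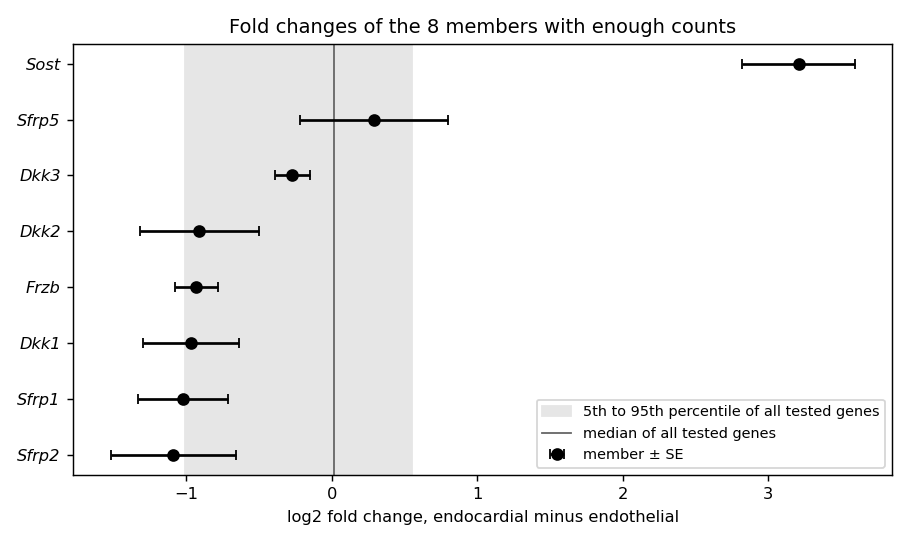
Log2 fold change, endocardial minus endothelial (x axis), with its SE for the 8 members that entered the fit, over the range of all tested genes (grey band, 5th to 95th percentile, -1.01 to 0.55; line, median 0.01). Sost stands at 3.21, and 5 members have point estimates between -1.09 and -0.91, with SEs of 0.15 to 0.43.

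Within a group, the libraries with the highest and lowest levels differed between members. Among the endothelial libraries, F was the highest for 5 members (Sost, Sostdc1, Sfrp2, Dkk1 and Wif1) and the lowest for Frzb and Dkk3, while H was the highest for Frzb, Sfrp5 and Dkk3 and the lowest for 5 others. B was the highest for Sfrp1 and Dkk2. Among the endocardial libraries, G was the lowest for 7 of the 10 members and the highest for Sfrp5 only. Library G also had the highest pan-endothelial sum (1959 CPM), and F the lowest of the 8 (426.3 CPM). With the group means removed, Pearson's r of log2 CPM between pairs of the 8 fitted members ran from -0.83 (Sost and Dkk3) to 0.82 (Sost and Dkk1) over the 8 libraries. Sfrp2 and Dkk2 had 0.74, Sfrp1 and Dkk2 0.67, Dkk1 and Dkk2 0.66 and Frzb and Dkk3 0.63, while Dkk1 and Dkk3 had -0.68. These values share the libraries and their depths and are given as a description, with no p.

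The genes most like the other members, by Pearson r over the 8 libraries, differed from member to member, as listed next. These values are a description with no p. For Sfrp1 they were Mab21l2, Lum and Atp10a (r 0.958 to 0.970). With the group means removed, r was 0.914 to 0.973 for these genes, so it also followed the spread within groups. By Spearman, Lum had a lower value of 0.810. Lum, a matrix proteoglycan gene, had 52.8 ± 41.2 CPM in endocardial and 159.9 ± 165 CPM in endothelial libraries (SD, n = 4). For Sfrp2 they were Synm, Tox3 and Col2a1 (0.954 to 0.974), the last a cartilage collagen gene at 100.1 ± 64.0 against 280.3 ± 169 CPM. For Dkk1, Zfp428 had an r of 0.998 and Celf5, an RNA-binding protein gene, one of 0.993, with Celf5 at 5.07 ± 1.68 against 10.4 ± 5.70 CPM. For Dkk2 they were Glis2, Asap3 and Shh (0.963 to 0.987), and Shh, the secreted Hedgehog ligand gene, had 7.53 ± 4.68 against 28.9 ± 21.6 CPM. For Frzb they were Ccdc112, Shb and Tex264 (0.950 to 0.975), for Dkk3 Arxes1, Plp2 and Arxes2 (0.955 to 0.984), and for Sfrp5 Trap1, Snd1 and Trim25 (0.926 to 0.968).

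Per length of exon, Sfrp1 was the most abundant antagonist in both groups, at 17.3 ± 5.87 CPM per kilobase in endocardial and 35.1 ± 13.5 in endothelial libraries (SD, n = 4). Dkk3 came next, at 10.7 ± 0.677 and 12.9 ± 1.77 CPM per kilobase, and then Dkk1, at 6.06 ± 1.60 and 11.8 ± 5.70. In endocardial libraries Frzb (5.0 ± 0.839), Sfrp2 (4.62 ± 2.77), Sost (3.79 ± 0.985), Dkk2 (2.01 ± 0.907), Sfrp5 (0.960 ± 0.310), Sostdc1 (0.290 ± 0.338) and Wif1 (0.286 ± 0.191) followed. In endothelial libraries the order after Dkk1 was Sfrp2 (9.89 ± 3.45), Frzb (9.56 ± 0.957), Dkk2 (3.81 ± 1.51), Sfrp5 (0.778 ± 0.545), Wif1 (0.614 ± 0.323), Sostdc1 (0.602 ± 0.812) and Sost (0.404 ± 0.218). Most neighbours in these orders overlapped. In endocardial libraries Dkk3 and Dkk1 were apart, and in endothelial libraries Sfrp1 and Dkk3, Frzb and Dkk2, and Dkk2 and Sfrp5 were.

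Summed over the 10 members, the antagonist level was 56.2, 56.2, 56.1 and 35.8 CPM per kilobase in endocardial libraries A, C, E and G, against 100.6, 74.5, 95.7 and 71.1 in endothelial libraries B, D, F and H. The groups did not overlap, with G the lowest. The Frizzled-related genes made up 48.4% to 57.5% of that sum in endocardial and 59.1% to 71.7% in endothelial libraries. The Dickkopf genes made up 33.9% to 43.0% and 27.5% to 37.4%. Sost made up 5.47% to 8.99% of the sum in endocardial and 0.257% to 0.737% in endothelial libraries.

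**Figure D4:**
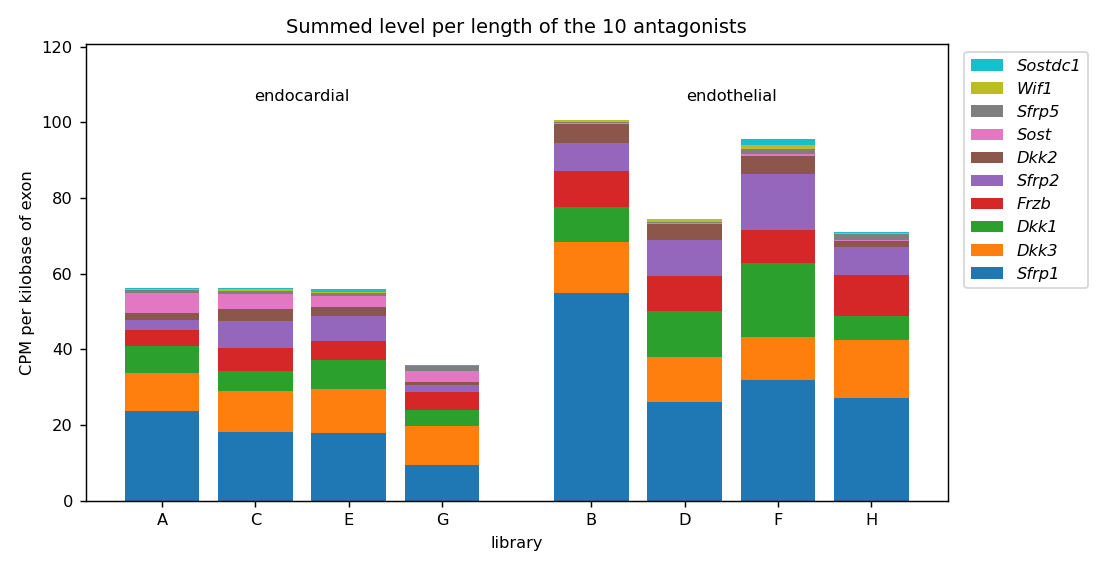
Level of the 10 antagonists in CPM per kilobase of exon (y axis, from 0), stacked by gene in each library, endocardial on the left and endothelial on the right. Sfrp1 is the largest segment in 7 libraries, and in library G Dkk3 is; the total is 35.8 to 56.2 in endocardial and 71.1 to 100.6 in endothelial libraries.

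The other genes of the pathway were listed by role, with earlier results of these data known, and were tested in the same fit. Of 97 such genes, 81 were tested, and 2 were higher and 2 lower at an edgeR adjusted p below 0.05, where 1.42% and 1.17% of all tested genes were. Their median log2 fold change was -0.17. At an unadjusted p under 0.05 were 31 of these 81 genes, where 2023 of all 13817 tested genes were. With DESeq2, 5 were higher and 11 lower, including 2 that edgeR's filter had left out (Wnt3a and Wnt8a), and with limma 4 and 7. Over all genes DESeq2 called 345 higher and 582 lower of 22728, and limma 409 and 552 of 13817. The 22728 are all genes with a count, and DESeq2's own filter can leave low ones without an adjusted p. Shares of the 22728 and of the 13817 are therefore not alike. Genes named below for these tools' calls alone were chosen after their values were seen.

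The other secreted or surface inhibitors had 10 tested genes, of which edgeR called 0 (3 at an unadjusted p under 0.05, and 1 lower each by DESeq2 and limma), with a median of -0.42. Apcdd1, a membrane inhibitor, had 110.1 ± 13.4 CPM in endocardial and 77.8 ± 16.9 CPM in endothelial libraries (n = 4, SD; log2 fold change 0.50, SE 0.16, edgeR adjusted p = 0.149). Tpbg, a cell-surface inhibitor, had 18.1 ± 3.05 against 35.3 ± 15.3 CPM (log2 fold change -0.96, or -0.63 without F, SE 0.27, edgeR adjusted p = 0.106), and was the gene called by DESeq2 and limma. Of 4 tested DAN family relatives of Sost, 0 were called by edgeR, DESeq2 or limma and 0 had an unadjusted p under 0.05. Among them the BMP antagonist gene Grem1 had 3.20 ± 1.62 CPM in endocardial and 6.70 ± 5.0 CPM in endothelial libraries (n = 4, SD; log2 fold change -1.05, or -0.40 without H, SE 0.57).

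Of 14 tested Wnt ligands, 1 fell and 0 rose, by edgeR, with 9 at an unadjusted p under 0.05 and a median of -1.03. DESeq2 called 6 lower (Wnt1, Wnt3a, Wnt5b, Wnt7b, Wnt8a and Wnt8b) and 0 higher, and limma 2 lower (Wnt6 and Wnt8b) and 1 higher (Wnt4). In endocardial libraries A, C, E and G, Wnt3a had 0, 0, 0 and 1 counts and Wnt8a 1, 2, 1 and 0. Endothelial counts in B, D, F and H were 9, 12, 4 and 6 for Wnt3a and 31, 8, 10 and 2 for Wnt8a. The calls of Wnt3a and Wnt8a thus rest on few reads. Wnt8b, a ligand known from the embryonic forebrain, had 1.03, 1.15, 1.61 and 0.125 CPM in endocardial libraries A, C, E and G, against 4.0, 10.8, 17.4 and 4.65 CPM in endothelial libraries B, D, F and H. All endocardial libraries were below all endothelial ones (log2 fold change -3.19, SE 0.64, edgeR adjusted p = 0.0329). In counts this was 8, 11, 15 and 1 against 45, 74, 167 and 39. The endocardial levels thus rest on few reads. Wnt8b entered the fit through its endothelial libraries, since endocardial A and G did not reach the filter's 1.13 CPM. The call was lost without A, C, D, E, F or G, with adjusted p between 0.0554 and 0.106. Wnt7b, also known from neural tissue, had 0.786 ± 0.636 against 6.36 ± 5.18 CPM (SD, n = 4). It was not called (log2 fold change -2.95, SE 0.79, edgeR adjusted p = 0.0911). It was called by edgeR without B (adjusted p = 0.0347) and by DESeq2, and its log2 fold change was -2.34 without F. Its endocardial counts were 1, 14, 11 and 3 in A, C, E and G, so these levels also rest on few reads. The neural ectoderm sums given above were lower in the endocardial libraries too, apart from C against H, and their part in the levels of these ligands was not tested.

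Of 13 tested Frizzled and other Wnt receptors, 1 fell and 0 rose, by edgeR, with 7 at an unadjusted p under 0.05 and a median of -0.32. DESeq2 called 3 lower (Fzd3, Fzd5 and Fzd8) and limma 3 (Fzd3, Fzd5 and Ror2), and both called 1 higher, Fzd10, at 36.5 ± 7.95 CPM in endocardial and 23.2 ± 4.45 CPM in endothelial libraries (n = 4, SD; log2 fold change 0.66, SE 0.19, edgeR adjusted p = 0.11). Fzd5 had 11.1, 11.3, 12.4 and 9.96 CPM in endocardial libraries A, C, E and G, against 27.7, 30.2, 51.9 and 30.2 CPM in endothelial libraries B, D, F and H. The groups lay far apart, with F the highest (log2 fold change -1.64, SE 0.21, edgeR adjusted p = 0.0033), and the call held in all 8 fits that left out 1 library. Fzd3 had a log2 fold change of -0.96 (SE 0.23) and was not called by edgeR (adjusted p = 0.0612), but was without H (0.0104) and by DESeq2 and limma. The receptors that Sost and Dkk proteins bind were present in both groups. Of the 4 tested, 0 were called by edgeR, DESeq2 or limma, with 1 at an unadjusted p under 0.05. Lrp5 had 183.8 ± 12.7 CPM in endocardial and 163.3 ± 10.6 CPM in endothelial libraries (n = 4, SD; log2 fold change 0.17, SE 0.10). Lrp4, which anchors sclerostin in bone, had 83.6 ± 19.3 against 113.8 ± 17.0 CPM and was not called (log2 fold change -0.45, or -0.30 without E, SE 0.18, edgeR adjusted p = 0.289).

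Among R-spondins, Lgr receptors and the ligases that remove Frizzled receptors, 1 of 8 tested genes rose and 0 fell, by edgeR, with 5 at an unadjusted p under 0.05 and a median of -0.16. DESeq2 called 2 higher (Lgr5 and Rspo3) and 1 lower (Rspo1), and limma 1 higher (Lgr5) and 1 lower (Rspo1). Lgr5, a receptor for R-spondins and a known beta-catenin target in intestine, had 10.8, 13.7, 8.15 and 14.6 CPM in endocardial libraries A, C, E and G, against 4.0, 4.81, 4.99 and 3.34 CPM in endothelial libraries B, D, F and H. No library of one group reached the other (log2 fold change 1.46, SE 0.24, edgeR adjusted p = 0.0147). The call was lost without C (adjusted p = 0.0654) or G (0.0538). Rspo1, a ligand that strengthens Wnt signalling, had 1.47 ± 0.654 against 5.14 ± 3.66 CPM (n = 4, SD; log2 fold change -1.81, SE 0.52, edgeR adjusted p = 0.109), and its log2 fold change was -1.19 without B. Rspo3, another R-spondin, had 68.5 ± 27.2 against 26 ± 14.5 CPM, in the opposite direction (log2 fold change 1.40, SE 0.43, edgeR adjusted p = 0.134), and was called by DESeq2 (adjusted p = 0.0111).

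Genes of the pathway inside the cell did not pass the test. Of 13 intracellular and secretion genes, 0 were called by edgeR, DESeq2 or limma (2 at an unadjusted p under 0.05), with a median of -0.07. Porcn, the enzyme gene that lipidates Wnt proteins, had a log2 fold change of -0.85 (SE 0.28, edgeR adjusted p = 0.155), and the transcription factor gene Tcf7l2 one of -0.31 (SE 0.14). Of 12 tested beta-catenin targets, 0 were called by any of the 3 tools (2 at an unadjusted p under 0.05), with a median of -0.08 and 6 of the 12 below 0. Lef1 had 30.5 ± 4.05 CPM in endocardial and 23.7 ± 4.30 CPM in endothelial libraries (n = 4, SD; log2 fold change 0.37, SE 0.16), and Sp8 had 1.17 ± 0.664 against 3.09 ± 1.11 CPM (log2 fold change -1.37, SE 0.44, edgeR adjusted p = 0.157).

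Transcription factor genes known to act on Sost in bone had 4 tested members, of which 1 rose and 0 fell, with 2 at an unadjusted p under 0.05 and a median of 0.36. Mef2a had 88.4, 89.8, 85.8 and 104.2 CPM in endocardial libraries A, C, E and G, against 70.6, 63.1, 60.7 and 65.7 CPM in endothelial libraries B, D, F and H. The groups did not overlap (log2 fold change 0.50, SE 0.10, edgeR adjusted p = 0.0327), but the call held only without B and was lost without each of the other 7 libraries, with adjusted p up to 0.111. Mef2c, whose product acts on a distal Sost enhancer in mouse bone, had 65.7, 31.2, 41.8 and 39.1 CPM in endocardial libraries, against 28.6, 15.7, 15.9 and 23.4 CPM in endothelial libraries. All endocardial libraries were above all endothelial ones, though the difference missed the threshold (log2 fold change 1.08, SE 0.26, edgeR adjusted p = 0.0653). It was called without B (0.0348) and by DESeq2 (adjusted p = 0.00345).

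**Figure D5:**
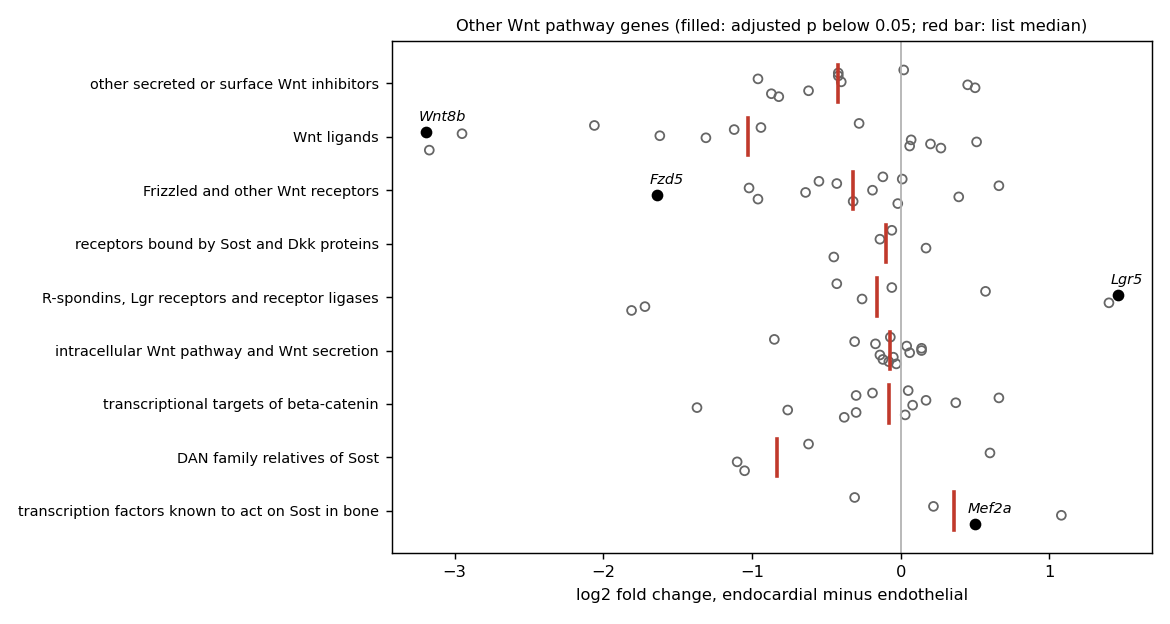
Log2 fold change, endocardial minus endothelial (x axis), of each tested gene in 9 lists of other Wnt pathway genes (rows), with filled points for an edgeR adjusted p below 0.05 and a red bar for the list median. Lgr5 and Mef2a lie above 0 and Wnt8b and Fzd5 below, and the Wnt ligands have the lowest median, -1.03.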

How the data were processed

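RNA was sequenced from 8 samples of sorted mouse cells, 4 endocardial and 4 endothelial, using an RNeasy Mini kit and an Illumina stranded mRNA kit, per the labels' protocols. The authors deposited 1 table of estimated counts by gene symbol, in whole numbers. Salmon, DESeq2 and build mm10 are named per the submitters' processing notes; for their versions, transcripts and filters the sources used here give nothing. Salmon shares reads between similar transcripts by a model.

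Genes were kept by filterByExpr (count 10, total 15), normalized by TMM and compared by the robust quasi-likelihood test of edgeR 4.0.16 (R 4.3.3), endocardial minus endothelial, with Benjamini-Hochberg adjustment over 13817 genes at 0.05. SEs are the size of the log2 fold change over the root of the F statistic. CPM uses TMM-scaled totals. Log2 CPM for likeness used a prior count of 2. Lengths are the exon union in GENCODE M21 (GRCm38, which is mm10), where 32697 of the 34536 symbols were found. The fits were also run on simulated data with 200 genes changed, drawn with the spread that edgeR estimated here. That simulation held no shifts in cell composition between libraries, so it does not bear on the calls above. Library totals limit the precision of low genes, since floors cover counting error only.

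The members and lists were chosen with earlier results of these data known. Genes were named by rule: the members, pathway genes called or with the 2 smallest p of each list, the 3 genes most like each member (5 for Sost), the 2 nearest protein-coding genes on each side of Sost, and the 2 most abundant genes of each marker list. A few genes that this rule names are not reported here. Alternatives were DESeq2 1.42.0, limma 3.58.1 (voom with sample weights), other scalings and filters, no robust estimation, omission of each library in turn and a threshold of 0.01. The Sost ratio to pan-endothelial genes and 2 motifs were added after the data were seen.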

Additional observations from a re-analysis of the deposited data

Results flagged for a closer look

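Of 56 groups of 4 libraries, those of the members and the named pathway genes, 5 had 1 library far from the other 3. The cutoff used passes about 1 in 20 groups of independent, normally distributed values. These groups share the same 8 libraries and some hold few counts, so that rate is no measure of chance here. Sostdc1 was at 3.23 CPM in endothelial library F, against 0.178 to 0.597 CPM in the other endothelial libraries. Fzd5 was at 51.9 CPM in library F, against 27.7 to 30.2 CPM in the other endothelial libraries. Lrp4 was at 54.8 CPM in endocardial library E, against 90.2 to 95.5 CPM in the other endocardial libraries. In endocardial library A, Rspo1 was at 2.45 CPM, against 1.07 to 1.25 CPM in the others, and Grem1 at 0.773 CPM, against 3.86 to 4.18 CPM in the others.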

How the results depend on the processing

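The log2 fold change of each of the 8 fitted members moved by less than 1 SD between libraries under every alternative run. Sost ranged from 3.02 to 3.63, Frzb from -1.06 to -0.80. Sfrp1 ranged from -1.22 to -0.71, Sfrp2 from -1.42 to -0.72, Dkk1 from -1.18 to -0.62, Dkk2 from -1.20 to -0.58, Dkk3 from -0.35 to -0.19 and Sfrp5 from 0.03 to 0.76. The lower calls among members were 2 with DESeq2 (Frzb and Sfrp1), 2 with limma (Frzb and Dkk1) and 0 with edgeR at a threshold of 0.01. Over all genes, DESeq2 called 927, limma 961 and the main edgeR fit 358. Of the other pathway genes, DESeq2 called 5 higher and 11 lower, limma 4 and 7, and edgeR at 0.01 called 0 and 1. Leaving out 1 library gave 0 to 3 higher (0 without C or G) and 1 to 4 lower (4 without H). The cause of these differences was not tested. Upper-quartile scaling placed the median of all genes at -0.03, against 0.01. With Spearman in place of Pearson, 1 of the 5 genes most like Sost stayed among its top 5. Of the 3 named for each other member, 0 stayed for Frzb, Sfrp2 and Sfrp5, 1 for Sfrp1 and Dkk3, 2 for Dkk2 and 3 for Dkk1. Lengths of the longest transcript moved no level per length by more than 1 SD. No paired analysis was run. The letters of the 8 libraries alternate between the groups, but no label says that neighbours such as A and B belong together. A shared origin of neighbouring libraries was not tested. Sostdc1 and Wif1 are limited by depth.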
